A study of Mus musculus with 2 samples.

Results

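The immediate early genes examined here were 10: Fos, Fosb, Jun, Junb, Jund, Egr1, Ier2, Atf3, Dusp1 and Nr4a1, measured in polyA-plus RNA of embryonic mouse forebrain. They were chosen by name and found by gene symbol among the 55536 gene identifiers of the quantification against GENCODE M21, where 10 of 10 were present. The samples were 2 pools of forebrain from B6NCrl embryos of both sexes at embryonic day 12.5, healthy according to the labels, which name no treatment. Pool 1 held forebrains of 120 embryos and pool 2 those of 68 embryos, and 10 ng of RNA with ERCC spike-in RNAs entered each oligo-dT primed, tagmented library. Pooling averages over embryos, so the spread between the pools, labelled as biological replicates with 1 shared donor entry, is not that between animals. There is 1 group by the labels, so levels and differences between the pools are descriptions. An exact two-sided sign-flip test on 2 pools cannot give a p below 0.5, and none was run.

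Immediate early genes are transcribed within minutes of a stimulus, before any new protein is made. Growth factors, synaptic activity and stress reach them through MAP kinase and cAMP signals, which act on the factors SRF with its Elk partners and CREB bound at their promoters. Fos and Jun proteins pair through leucine zippers into the transcription factor AP-1, and the mRNAs are typically short-lived. In brain the genes are best known as markers of neuronal activity, and they are also induced while tissue is dissected, so they report handling as well as physiology.

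Total gene counts were 33373843 (pool 1) and 34406648 (pool 2), and the libraries differed by more than counting noise, with a biological coefficient of variation of 8.51% from edgeR's common dispersion. Of the forebrain markers 10 of 10 had at least 1 TPM in both pools, and of the midbrain, hindbrain and trunk markers 0 of 7, with En1 highest at 0.69 TPM in pool 1 and 0.93 in pool 2. TPM is a transcript abundance per length, scaled to 1000000 per library. Every ± is an SD over n = 2 pools, and intervals are exact 95% intervals that cover counting error only.

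The members split into 2 tiers with a gap between them. Jund, Jun, Ier2 and Dusp1 averaged between 34.0 and 124.5 TPM, and Junb, Nr4a1, Egr1, Atf3, Fos and Fosb between 0.095 and 3.78 TPM. The lowest of the upper tier stood 9.00-fold above the highest of the lower tier. Within the lower tier Fos stood 8-fold above Fosb, which had 5 counts in pool 1 and 0 in pool 2. The gap describes these 10 genes, as other immediate early genes had levels within it. The upper 4 held 96.6% of the members' summed TPM in pool 1 and 96.7% in pool 2. In all, 7 of 10 members had at least 1 TPM in both pools, against 58.9% of all annotated protein-coding genes. The median of the members' mean TPM was 3.16, against 4.08 over the 22028 protein-coding genes.

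**Figure D1:**
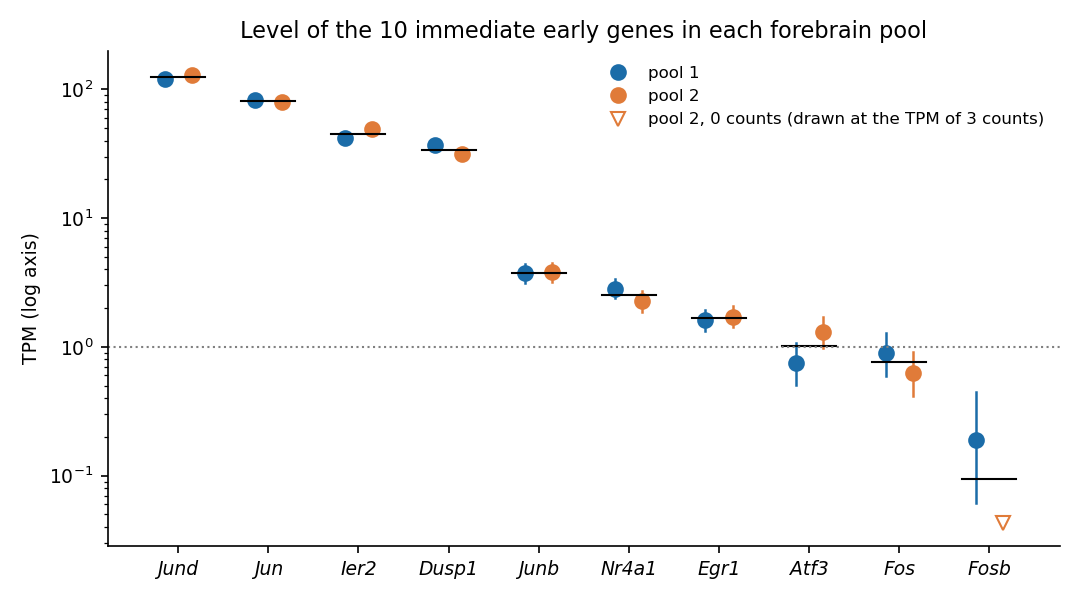
TPM on a log axis for each member, with pool 1 left and pool 2 right of each pair, exact 95% counting intervals as vertical lines, the mean as a black bar and TPM 1 dotted. The open triangle is Fosb in pool 2, which had 0 counts and is drawn at the TPM of 3 counts. Jund to Dusp1 lie above 31 TPM in both pools, and the other 6 members below 4 TPM.

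Promoter sequence is shown for a pair of members of the upper tier, Jun and Dusp1, and for the 2 lowest, Fos and Fosb, so that levels can be read beside the DNA from which transcription starts. RefSeq entries (GRCm38.p6) were found for 8 of 10 members, and no entry was matched for Egr1 and Ier2. Each line gives the 250 bases before the start, 5′ to 3′ on the gene's strand. Capitals mark the cAMP response element core TGACG, its palindromic form TGACGTCA and the TATA box TATAAA. The regions are chr17:26508473-26508722 (minus strand) for Dusp1, chr4:95052223-95052472 (minus) for Jun, chr12:85473640-85473889 (plus) for Fos and chr7:19310046-19310295 (minus) for Fosb.
Dusp1: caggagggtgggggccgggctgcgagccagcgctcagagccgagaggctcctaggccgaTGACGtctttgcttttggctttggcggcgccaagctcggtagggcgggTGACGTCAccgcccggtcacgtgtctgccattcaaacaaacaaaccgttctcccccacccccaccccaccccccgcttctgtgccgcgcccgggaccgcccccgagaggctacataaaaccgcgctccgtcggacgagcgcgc
Jun: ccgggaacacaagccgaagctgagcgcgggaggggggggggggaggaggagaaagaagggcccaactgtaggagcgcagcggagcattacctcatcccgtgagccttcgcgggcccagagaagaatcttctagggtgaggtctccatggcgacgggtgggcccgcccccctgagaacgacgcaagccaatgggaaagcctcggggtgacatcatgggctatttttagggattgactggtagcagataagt
Fos: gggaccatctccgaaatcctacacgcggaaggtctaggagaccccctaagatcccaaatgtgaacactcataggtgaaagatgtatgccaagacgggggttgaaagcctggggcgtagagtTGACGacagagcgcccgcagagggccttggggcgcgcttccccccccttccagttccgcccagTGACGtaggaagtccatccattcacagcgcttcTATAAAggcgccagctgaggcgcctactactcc
Fosb: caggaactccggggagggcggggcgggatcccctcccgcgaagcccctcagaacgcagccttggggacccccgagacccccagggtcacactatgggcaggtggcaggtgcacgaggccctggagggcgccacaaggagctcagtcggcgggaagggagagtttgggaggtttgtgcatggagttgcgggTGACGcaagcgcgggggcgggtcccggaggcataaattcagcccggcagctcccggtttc

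Letters of the cAMP response element were common in these windows. On either strand TGACG lay in 6 of 8 member windows (Atf3, Dusp1, Fos, Fosb, Junb and Nr4a1), against 17.8% of the 32851 RefSeq windows of the same length. The palindrome TGACGTCA, which contains that core on both strands, lay in Dusp1 alone among the 8, from -143 to -136 relative to its start, against 1.55% of all windows. Fos held the core from -129 to -125 and from -66 to -62, and TATAAA from -33 to -28. TATAAA was in 1 of 8 member windows and in 12.4% of all. CCAAT was in Jun and Junb, and in 33.8% of all windows. The Egr site GCGNGGGCG was in Fosb and Nr4a1, and in 4.70% of all. No window held the AP-1 letters TGANTCA (6.75% of all) or the CArG box bound by SRF (1.47% of all), which says only that these letters are not in these 250 bases. GC content ranged from 47.6% in Jund to 74.4% in Nr4a1, against a median of 52.4% over all windows. A match is a description and not a binding site. The Jund window lies 1210 bases upstream of the start of the M21 gene model, where RefSeq places the start.

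The Jun family made up the larger part of the AP-1 transcripts. Jun (ENSMUSG00000052684.4, chromosome 4, 95049034 to 95052222, GRCm38), a transcription factor activated by the kinase JNK, had 83.2 TPM in pool 1 and 79.3 in pool 2, from 5460 and 5420 counts. Its mean of 81.3 ± 2.76 TPM (SD, n = 2) placed it above 90.3% of protein-coding genes. Jund (ENSMUSG00000071076.6, chromosome 8, 70698949 to 70700616), the family member least dependent on stimulation, had 119.5 TPM in pool 1 and 129 in pool 2. That mean of 124.5 ± 7.02 TPM ranked it 1289 among protein-coding genes and first of the members. Junb (chromosome 8, 84974484 to 84978718), which pairs with Fos but activates more weakly than Jun, had 3.75 TPM in pool 1 and 3.81 in pool 2, from 136 and 144 counts. The pools nearly coincided for Junb, and its level lay below the median of protein-coding genes.

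Fos and Fosb were at the edge of detection. Fos (ENSMUSG00000021250.13, chromosome 12, 85473890 to 85477273), the partner that Jun needs for its most stable dimer, had 0.89 TPM in pool 1 and 0.63 in pool 2. Those values rest on 29 counts (interval 19.4 to 41.6) in pool 1 and 28 counts (18.6 to 40.5) in pool 2. Fosb (chromosome 7, 19302696 to 19310051), whose truncated form accumulates with repeated stimulation in adult brain, had 5 counts in pool 1 (1.62 to 11.7), or 0.19 TPM. In M4 the same counts gave 0.07 TPM, over a gene length of 3751 bases. In pool 2 Fosb had 0 counts. A count of 3, taken as the floor, equals 0.043 TPM at the effective length of 3171 bases deposited for pool 2, but 0.113 TPM in pool 1 at its 1250 bases, so the bound depends on the transcript. The deposited posterior mean was 0.27 TPM in pool 1 and 0.12 in pool 2. The 3 Jun genes summed to 206 TPM in pool 1 and 213 in pool 2, and Fos with Fosb to 1.08 and 0.63 TPM. With the relatives Fosl1 and Fosl2 added, the Fos side reached 2.07 TPM in pool 1 and 1.35 in pool 2. In M21 Jun transcripts exceeded it 99.8-fold in pool 1 and 157.5-fold in pool 2. These ratios are loose, since Fosl1 had 2 counts in pool 1 and 0 in pool 2, below the floor. They also depend on the annotation, as Jund averaged 124.5 TPM in M21 and 62.3 in M4.

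The other transcription factors among the members were low as well. Nr4a1 (chromosome 15, 101254269 to 101274795), an orphan nuclear receptor, had 2.83 TPM in pool 1 and 2.26 in pool 2, from 142 and 118 counts. Egr1, a zinc finger factor and a standard marker of neuronal activity, had 1.61 TPM in pool 1 and 1.72 in pool 2, from 106 and 116 counts. The pools differed by less than counting error for Egr1, whose intervals of 86.8 to 128 counts in pool 1 and 95.8 to 139 counts in pool 2 overlapped. Atf3 (chromosome 1, 191170296 to 191218039), a stress-induced repressor of the ATF and CREB family, had 0.75 TPM in pool 1 and 1.30 in pool 2, from 30 and 54 counts. It passed 1 TPM in pool 2 only.

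Ier2 and Dusp1 completed the upper tier. Ier2 (ENSMUSG00000053560.4, chromosome 8, 84661331 to 84662852), a nuclear protein induced by growth factors, had 41.9 TPM in pool 1 and 48.7 in pool 2, with a mean of 45.3 ± 4.84 TPM (SD, n = 2). Ier2 and Junb lie on the same chromosome and strand, 311631 bases apart, with mean levels of 45.3 and 3.78 TPM. Dusp1 (ENSMUSG00000024190.7, chromosome 17, 26505590 to 26562128), the phosphatase that switches MAP kinases off again, had 36.8 TPM in pool 1 and 31.2 in pool 2, with a mean of 34.0 ± 3.97 TPM. The mean of Dusp1 lay above that of 77.7% of protein-coding genes.

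From highest to lowest mean the order was Jund, Jun, Ier2, Dusp1, Junb, Nr4a1, Egr1, Atf3, Fos and Fosb. Of the 9 neighbouring pairs, 8 did not overlap between pools. The exception was Atf3 and Fos, whose values of 0.75 and 1.30 TPM and of 0.89 and 0.63 TPM interleave. The place of Jund depends on the annotation, as given next.

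Reads at the Jund locus were shared with a gene on the opposite strand. Gm11175, an antisense gene of 919 bases, lies wholly within Jund, and whether the counting used strand is not given in the sources used here. In M21, 3981 reads went to Jund and 296 to Gm11175 in pool 1, and 4492 and 326 in pool 2, so Jund held 93.1% of the sum in pool 1 and 93.2% in pool 2. In the older release M4, Jund held 77.8% in both pools. The sums were nearly the same, 4277 reads in M21 and 4303 in M4 for pool 1, and 4818 and 4856 for pool 2. Jund is 1668 bases long in M21 and 2878 bases in M4, and in M4 it held fewer reads, 3346 in pool 1 and 3777 in pool 2. With both changes its mean level was 62.3 ± 3.55 TPM (SD, n = 2) in M4. There it stood below Jun at 85.6 ± 2.88 TPM.

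**Figure D2:**
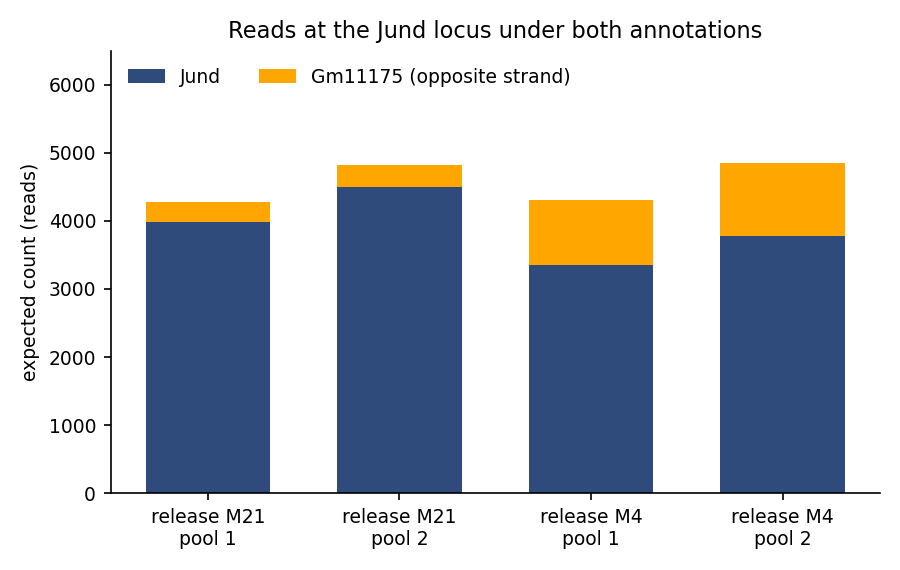
Expected counts assigned to Jund (blue) and to the overlapping antisense gene Gm11175 (orange), stacked, per annotation release and pool. The bar heights differ little between releases (4277 and 4303 reads in pool 1), while the orange part is larger in M4.

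Jun, Junb and Dusp1 also overlap other genes, chosen for mention after values were seen, as was Gm11175. The antisense gene Junos overlaps the 5′ end of Jun over 689 bases and held 15.9 reads in pool 1 and 29.6 in pool 2, against 5460 and 5420 on Jun. The 3′ end of the Junb gene model overlaps that of Prdx2, a peroxidase gene on the other strand, over 351 bases, 84974484 to 84974834. Prdx2 stood at 998 TPM in pool 1 and 995 in pool 2, against 3.78 TPM for Junb. The leading transcript Junb-201 is 1 exon of 1809 bases, too short to span the whole gene model. The 5′ end of the model, at 84978718, lies beside the start that RefSeq gives. From that start Junb-201 does not reach the overlap, and the second transcript, Junb-202, held 0 reads. The deposited posterior SD of the Junb count was 0.21 reads in both pools, so the authors' model left little of it ambiguous. The Dusp1 gene model overlaps Ergic1, a gene of transport between the endoplasmic reticulum and Golgi on the other strand, over 640 bases. Ergic1 had 82.2 TPM in pool 1 and 78.2 in pool 2. The overlap, at 26561489 to 26562128, lies far upstream of the RefSeq start of Dusp1, which adjoins its promoter window at 26508473. Whether a Dusp1 transcript that holds reads extends to the overlap was not examined.

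Several members had no introns. The leading transcript of 4 of 10 (Jun, Junb, Jund and Ier2) consisted of 1 exon, against 3.43% of the 12966 detected protein-coding genes. The median gene span was 4698 bases for members and 25036 bases for detected protein-coding genes, and the median leading transcript 1987 and 2625 bases. Dusp1 and Atf3, as annotated in M21, span more than that median of detected genes. Intronless members were found in both tiers, Junb in the lower.

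Most members carried in the 3′ UTR the letters of AU-rich elements, through which proteins such as Zfp36 shorten the life of an mRNA. A match is a description of letters, and its effect on decay was not tested. The pentamer ATTTA was counted on the transcript strand in leading protein-coding transcripts. In the last 300 bases of the UTR it occurred in 8 of 9 members with a UTR of that length, against 45.7% of 10028 detected genes. Its density was 5.80 per kilobase in Dusp1, 5.52 in Nr4a1 and 4.91 in Fos, against a median of 1.5 over those genes, while Jund at 1.88 and Egr1 at 1.68 lay near that median. Ier2, in the upper tier, had none, nor did the 207-base UTR of Fosb-206, which led Fosb on 3.56 reads. Other coding Fosb transcripts, such as Fosb-205 with a 3′ UTR of 2139 bases, were not scanned. The longer form TTATTTATT, which contains the pentamer, was in the last 300 bases of 2.28% of detected genes and of 2 members, Dusp1 and Fos. The sites below, 30 bases each around the nonamer nearest the stop codon in GENCODE M21, show it in capitals in 1 member of each tier. Dusp1 has 2 nonamers in its UTR, and the one shown is not the one in its last 300 bases. They lie at chr17:26506158-26506187 (minus strand) and chr12:85477103-85477132 (plus strand) of GRCm38.
Dusp1: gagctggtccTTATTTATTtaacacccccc
Fos: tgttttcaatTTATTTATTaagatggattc

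Transcript tables were used next to ask which isoforms carried these levels. Jun, Junb, Jund and Ier2 had 100% of their TPM in 1 transcript. For Egr1 the leading form was Egr1-202, with 89.4% of TPM in pool 1 and 91.9% in pool 2. Nr4a1 was divided between Nr4a1-201 (64.7% in pool 1 and 55.7% in pool 2) and Nr4a1-202 (32.9% and 41.1%). The deposited posterior SDs of these counts were 18.4 to 19.6 reads, while Nr4a1-201 itself held 92.2 reads in pool 1 and 66.1 in pool 2, so the split is loosely determined. With the M4 tables Nr4a1-201 held 100%. For Atf3 the leading form was Atf3-201 in both pools, with 100% in pool 1 and 86.1% in pool 2. The non-coding Fos-202 took 31.8% of the TPM of Fos in pool 1 from 3.19 reads, and 0% in pool 2. In Fosb, 3.56 of the 5 reads of pool 1 went to Fosb-206.

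Dusp1 differed between the pools in its intron-retaining forms. Its main mRNA, Dusp1-202, had 31.1 TPM in pool 1 and 28.3 in pool 2. The intron-retaining Dusp1-203 and Dusp1-204 together had 5.70 TPM in pool 1 and 2.70 in pool 2. By reads they held 12.85% of Dusp1 in pool 1 (95% Clopper-Pearson interval 11.2 to 14.7) and 5.85% in pool 2 (4.64 to 7.32). The difference of 7.0 percentage points lay mostly in Dusp1-203, with 142 reads in pool 1 and 44.2 in pool 2, whose posterior SDs were 24.5 and 14.0 reads. Over 4848 protein-coding genes with such a transcript and a mean count of 1000 or more, the median share was 4.25% in pool 1 and 4.78% in pool 2. Of these genes 0.990% had a share at least 5 percentage points higher in pool 1. This comparison was chosen after its values were seen. In M4 the Dusp1 shares were 12.8% and 5.86%.

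**Figure D3:**
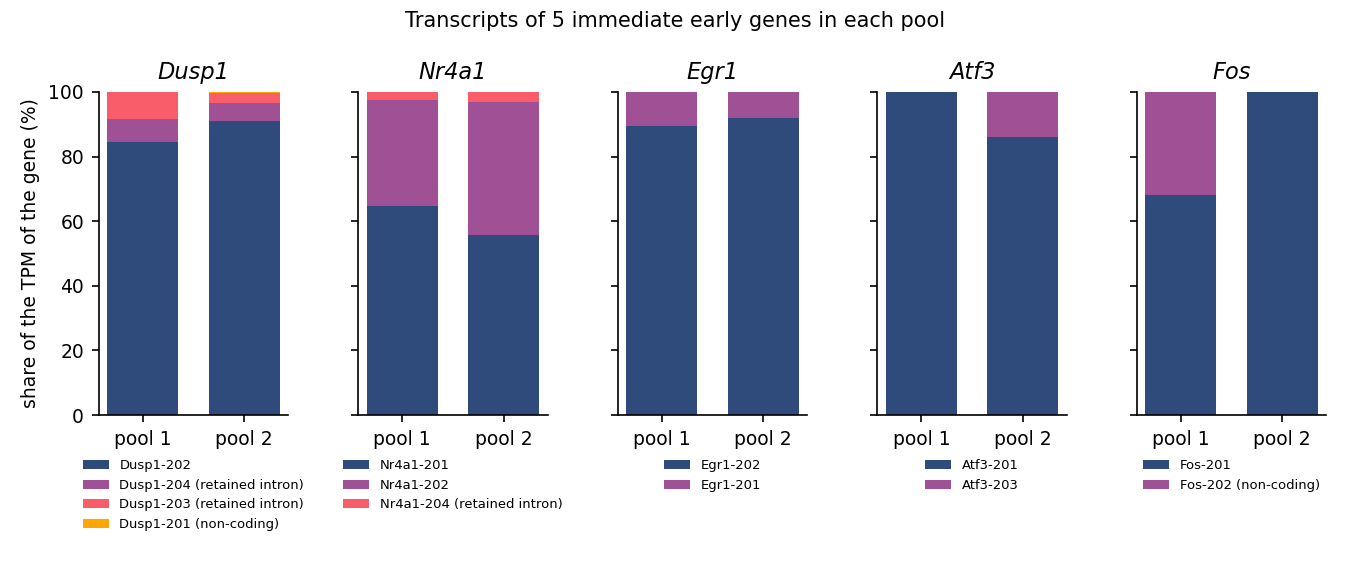
Share of each gene's TPM by transcript, pool 1 left and pool 2 right, for the members other than Fosb with more than 1 transcript above 0. Intron-retaining forms of Dusp1 take 15.5% of its TPM in pool 1 and 8.66% in pool 2. The differences for Fos and Atf3 rest on fewer than 10 reads of the minor form.

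Between the pools most members lay close together. Ratios are of counts normalised by edgeR's TMM, pool 1 over pool 2, for genes whose mean count reached 10, which 9 of 10 members reached and Fosb did not. Of the 9, 4 were higher in pool 1 and 5 in pool 2, against 49.4% of 19063 genes higher in pool 1. Their median log2 ratio was -0.01, against 0.00 over all genes, and the median size of the ratio was 0.12, against 0.13. At least 1.5-fold apart was 1 of 9 members, against 11.2% of all genes. None of the 9 was that much higher in pool 1 (3.26% of all genes), and 1, Atf3, was that much higher in pool 2 (7.96% of all genes). Each pool is 1 library, so these ratios have no replicate check.

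Among abundant members the ratios were small, and their counting intervals, which leave out variation between pools, did not include 0. Dusp1 was higher in pool 1 with a log2 ratio of 0.26 (interval 0.15 to 0.37), and Jun with 0.09 (0.03 to 0.14). Ier2 was lower in pool 1 with -0.20 (-0.31 to -0.09), and Jund with -0.10 (-0.16 to -0.04). These genes moved in opposite directions within the same tier, and all 4 lay within 1.5-fold. A larger ratio, in either direction, was found in 29.1% of all genes for Dusp1, 36.4% for Ier2, 59.1% for Jund and 63.3% for Jun. All genes include many with lower counts. No share among genes of like counts was taken for these 4, so whether any stood out among such genes is not known. Scaled by spike-in totals instead, Jun came to -0.08 and all genes to a median of -0.17, so its direction depends on the scaling, while its place relative to that median did not turn.

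For 4 of the low members the counting interval included equal levels. The interval of the log2 ratio ran from -0.02 to 0.71 for Nr4a1, from -0.45 to 0.34 for Egr1, from -0.36 to 0.34 for Junb and from -0.67 to 0.93 for Fos. For Atf3 it ran from -1.47 to -0.10 around -0.75, that is 1.69-fold higher in pool 2. Its mean count was 42, and of 2027 genes with a mean count within 1.5 times of that, 25.8% were at least 1.5-fold apart. By the ratio of TPM + 1 Atf3 stayed within 1.5-fold.

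**Figure D4:**
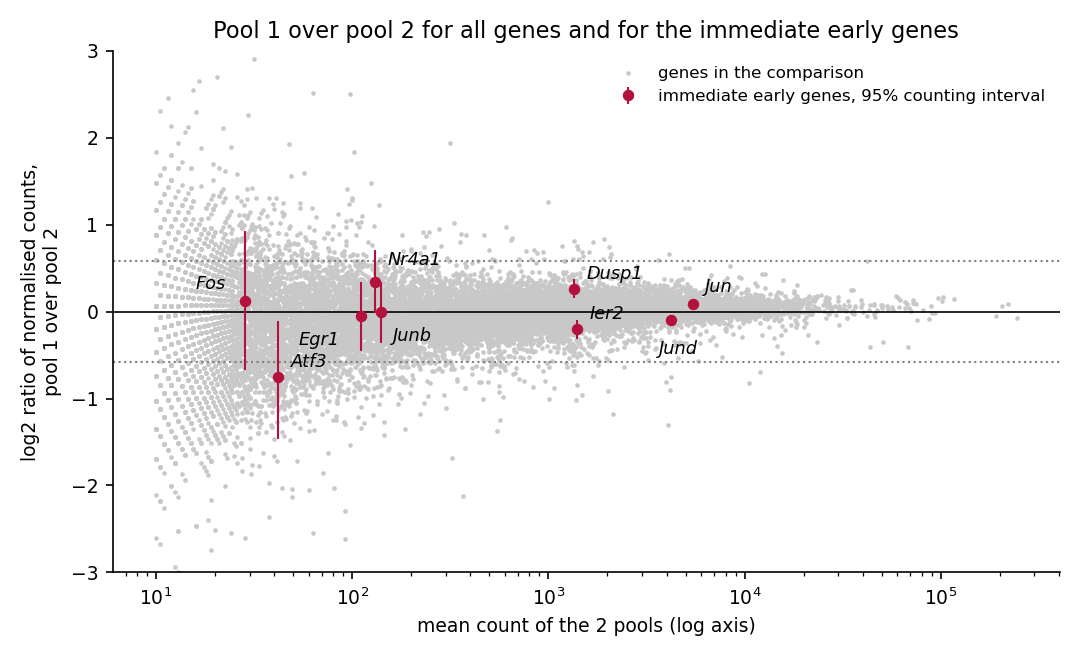
Log2 ratio of normalised counts, pool 1 over pool 2, against the mean count on a log axis, for 19063 genes (grey) and 9 members (red, with exact 95% counting intervals); dotted lines mark 1.5-fold and 30 genes lie outside the plotted range of -3 to 3. Members follow the funnel of all genes, and Atf3 alone among them lies past 1.5-fold.

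Markers of other cell types differed between the pools for some types and not for others. Summed markers came to 6265 TPM in pool 1 and 8508 in pool 2 for red blood cells, higher in pool 2 by count for 8 of 8 genes. Mesenchyme and meninges markers summed to 655 TPM in pool 1 and 798 in pool 2, again higher in pool 2 for 8 of 8. Past 1.5-fold by count among them were Epb42, a red cell membrane protein, at 1.64-fold and Foxc1, a factor of the meninges, at 1.84-fold higher in pool 2. Epb42 had 107 counts in pool 1 and 185 in pool 2, but read 3.42 TPM in pool 1 and 3.07 in pool 2. For Epb42, TPM and count thus order the pools in opposite ways. Endothelial markers summed to 106 and 105 TPM, pericyte markers to 25.4 and 26.5 TPM, and microglia markers to 53.3 and 60.2 TPM, for pool 1 and pool 2. None of these 5 lists had a marker at 0 counts, and their part in the level or ratio of any member was not tested. Of the 10 forebrain markers 6 were higher in pool 1 and 4 in pool 2, and those past 1.5-fold, the subpallial factors Nkx2-1, Gsx2 and Dlx2, were 1.78-fold, 1.77-fold and 1.58-fold higher in pool 1. In bulk tissue, fewer cells of a type and less RNA per cell cannot be told apart.

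Other immediate early genes showed a similarly wide range. Of 28 listed, 20 had at least 1 TPM in both pools, and their median was 4.57 TPM. The antiproliferative Btg2 had 106 TPM in pool 1 and 100.1 in pool 2, the mRNA decay factor Zfp36l1 75.3 and 71.6 TPM, and the MAP kinase phosphatase Dusp4 67.3 and 58.1 TPM. At the other end the prostaglandin synthase Ptgs2 had 0.04 TPM in pool 1 and 0.05 in pool 2, and Egr4 had 0 counts in both. Of the 24 with a mean count of 10 or more, 0 were 1.5-fold apart between pools, against 11.2% of all genes. That share includes many genes with lower counts than most of these 24, so the 2 are not matched.

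Genes of neuronal activity included both abundant and near-absent ones. Of 10 listed, 7 had at least 1 TPM in both pools. Rheb, a GTPase upstream of mTOR, had 156 TPM in pool 1 and 147 in pool 2, and the neurite growth factor Nrn1 34.2 and 34.1 TPM, followed by the cAMP-responsive factor Crem at 13.2 and 12.1 TPM. Npas4, a factor induced by calcium entry in neurons, had 0.07 TPM in pool 1 and 0.11 in pool 2, and the neurotrophin Bdnf 0.67 and 0.83 TPM. The prohormone convertase Pcsk1 was 1.79-fold higher in pool 1 by count, from 91 and 53 counts, but read 0.87 TPM in pool 1 and 1.37 in pool 2. Its TPM and its count thus order the pools in opposite ways.

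Heat and stress genes, which handling can also induce, were mostly detected. Of 12 listed, 11 had at least 1 TPM in both pools, with the chaperone Hsph1 at 100.3 and 96.6 TPM, its partner Dnajb1 at 52.5 and 49.3 TPM and the mTOR inhibitor Ddit4 at 45.9 and 48.2 TPM, for pool 1 and pool 2. The heat-inducible Hsp70 genes were low, with Hspa1a at 1.77 TPM in pool 1 and 1.53 in pool 2 and Hspa1b at 0.16 and 0.09 TPM. These neighbours are near-identical copies, so the division of reads between them is uncertain. The pseudokinase Trib3, an ATF4 target, was 1.73-fold higher in pool 2, from 50 and 92 counts, while of the 11 genes with enough counts 5 were higher in pool 1 and 6 in pool 2. Without an undissected sample, a level due to handling and a level of the living tissue cannot be told apart.

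The machinery upstream was present throughout. All 10 SRF, Elk, CREB and coactivator genes had at least 1 TPM in both pools, led by Creb1 at 58.9 and 51.7 TPM, Crebbp at 39.1 and 35.0 TPM and Atf1 at 26.7 and 26.8 TPM. Lowest were Srf itself at 3.89 TPM in pool 1 and 3.90 in pool 2 and Elk3 at 9.00 and 9.87 TPM. All 14 MAP kinase cascade genes passed as well, with a median of 35.5 TPM, and Map2k2, a kinase that activates ERK, was highest at 164 TPM in pool 1 and 163 in pool 2. Lowest were the ribosomal S6 kinases Rps6ka3 at 3.54 and 3.35 TPM and Rps6ka1 at 17.6 and 20.4 TPM. In both lists 0 genes were 1.5-fold apart between pools, against 11.2% of all genes, which include many with lower counts.

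Other leucine zipper factors, listed as possible partners of Fos or Jun, covered nearly the range of the members. Of 12 matched, 10 had at least 1 TPM in both pools, with a median of 12.2 TPM. Atf4, the effector of the integrated stress response, had 110.5 TPM in pool 1 and 103 in pool 2, Atf2, a partner of Jun, 76.8 and 78.6 TPM, and Nfe2l1 59.3 and 57.0 TPM. Lowest were Jdp2 at 0.37 TPM in pool 1 and 0.44 in pool 2, and Batf at 0.44 and 1.21 TPM. Batf was 2.86-fold higher in pool 2, but from only 7 and 23 counts. No counting interval and no share among genes of like counts was taken for Batf, Trib3 or Pcsk1. Jun, at a mean of 81.3 TPM, lay between Atf4 and Atf2, at means of 106.8 and 77.7 TPM.

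**Figure D5:**
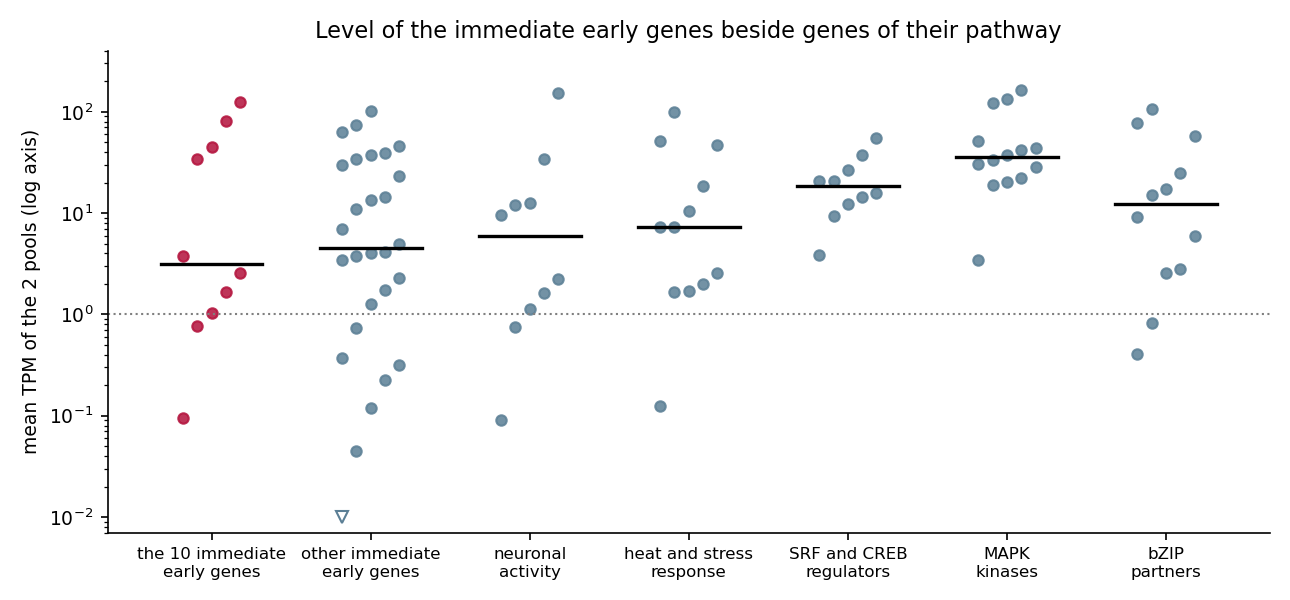
Mean TPM over both pools on a log axis for each gene of 7 lists, with the list median as a black bar and TPM 1 dotted; the triangle is Egr4, at 0 counts. The 10 members leave a gap between 3.78 and 34.0 TPM, and the lists of MAP kinases and of SRF and CREB regulators lie wholly above 3 TPM.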

How the data were processed

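PolyA-plus RNA of 2 forebrain pools was measured. The authors deposited, per library, gene and transcript tables for mm10 with GENCODE releases M21 (used here) and M4 (the alternative). The deposited expected counts are estimated reads that share out multiple matches. The deposited TPM and FPKM values are scaled per library and length, and FPKM was not printed. The deposited percent per isoform was recomputed from TPM. The deposited posterior mean TPM was treated as a score. No source used here names the aligner, the quantifier or the strandedness of counting.

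Counts were rounded. edgeR 4.0.16 (TMM, mean count of 10 or more, prior count 1) gave ratios and DESeq2 1.42.0 alternative size factors, in R 4.3.3 and Python 3.11.15. The ratio step was tested on simulated data. Fold threshold was 1.5, detection 1 TPM in both pools, and the floor for 0 counts 3 counts per library. Reads carry no molecular identifiers, so intervals and floors cover counting error only. Numbered entries held 5.74e-05% (pool 1) and 9.00e-05% (pool 2) of counts and were left out. Of 159 list symbols, 4 matched through synonyms (Ccn1, Ccn2, Mrtfa, Mrtfb), and Ddit3, which has 2 gene identifiers, was left out.

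Members and lists were chosen with earlier results of these data known. All members are named, and of other lists the 3 highest, 2 lowest and any gene past 1.5-fold between pools. Some genes that this rule names are not reported here. Marker lists, given mainly as sums and counts, and genes named for a contrast (Fosl1, Fosl2, Gm11175, Junos, Prdx2, Ergic1) are exceptions chosen after values were seen.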

Additional observations from a re-analysis of the deposited data

How the results depend on the processing

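Of 196 comparisons of a value with an alternative, 139 on single genes and 35 on summaries were counted as unchanged, and 13 and 9 moved. Unchanged meant within the spread or interval of the value, or, for counts of genes, within 1.5-fold. A member's mean level with 1 pool left out always lies within the SD of the 2 pools. The share of a gene with 1 annotated transcript, such as Jun, stays at 100%. Such comparisons could not move, so the tally is not a measure of robustness. No alternative that gave Atf3 a ratio turned its direction, while Jun turned from 0.09 to -0.08 with spike-in totals. The sum of the members' mean TPM was 295 and came to 242 with the M4 tables, where Jund is longer and holds fewer reads, and to 287 with posterior mean TPM. Members detected were 7 at 1 TPM and 4 at 5 TPM, and the other immediate early genes 20 and 13. Members higher in pool 1 were 4, and 2 with spike-in totals, which move the median of all genes to -0.17 and leave 17.6% of them higher in pool 1. Members past 1.5-fold were 1, but 0 by the ratio of TPM + 1 and 0 at 2-fold, and 2 with no filter on low counts and 2 at a lower fold threshold. The cause of these moves was not tested beyond the change of setting itself. With 1 pool left out, the sum ranged from 291 to 298 TPM and the detected members from 7 to 8, and ratios between pools could not be computed. No paired analysis was possible because there is 1 group. Depth limits Fos, Fosb, Atf3 and Egr1, which rest on 0 to 116 counts.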
